A study of Mus musculus with 8 samples.

Results

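The 10 macrophage genes described here are Cd14, Aif1, Csf1r, Cx3cr1, Cd68, Mrc1, Cd163, Adgre1, Lyz2 and Trem2, taken by symbol from a count table of 25780 genes. All 10 of 10 were present and passed the filter on low counts, which kept 20235 genes. Reads were counted in whole mouse dorsal root ganglia, which house the cell bodies of sensory neurons together with glia, vessels and immune cells, in 8 libraries from 4 groups of 2. The inducible knockout mice (iKO, labelled Avil-iCreERT2/AJwo with G9aflox/flox) carry floxed alleles of Ehmt2, the gene of the histone methyltransferase G9a, and a drug-inducible Cre recombinase controlled by Avil, a gene active in sensory neurons. Littermates that lack Cre are called wild type (WT). Whether they carry floxed alleles or received the inducing drug is not given in the sources used here. Mice of each genotype received, in the left paw, either vehicle or CFA (complete Freund's adjuvant), an oil emulsion that inflames the injected tissue, and ganglia were taken at day 14. The side, the spinal level, the age and sex of the mice and whether each library is a separate animal are not given, so p-values measure only the spread between these libraries, which may be technical.

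Macrophages are phagocytes that depend on signals through the receptor CSF1R. In dorsal root ganglia resident macrophages lie around neuron cell bodies and along vessels, clear debris, and multiply or are joined by blood monocytes after nerve injury, when neurons themselves release CSF1. The Avil-driven Cre acts in sensory neurons, so a difference in a macrophage gene between genotypes is measured in cells that were not meant to recombine. In bulk tissue, fewer macrophages and less RNA of a gene per macrophage cannot be told apart.

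The libraries held between 26312614 and 42971823 counted reads. Levels are given as CPM, read counts scaled to the depth of their library. Ehmt2 ran from 61.3 to 74.4 CPM over the WT libraries and from 31.6 to 45 CPM over the iKO libraries, lower in every iKO library than in every WT library. WT CFA library 2 differed from WT CFA library 1 by a median of 0.59 on the log2 scale over all genes, against 0.17 to 0.28 for the pairs of the other groups, and mitochondrial genes took 12.1% of its reads against 1.34% to 6.09% elsewhere. The WT vehicle libraries stood apart from the other 6 in several cell types at once. Summed over 23 immediate early genes, which respond within minutes to stimulation or handling, they were at 1750 and 1510 CPM against 615 to 731 CPM, and summed over 8 B and plasma cell genes at 2270 and 985 CPM against 107 to 213 CPM. Both facts bear on every comparison below, and their part in the differences was not tested.

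Promoter sequence from RefSeq (assembly GRCm38.p6) was found for 7 of the 10 genes: Mrc1, Cd163, Cx3cr1, Lyz2, Cd68, Aif1 and Trem2. The 250 bases before the annotated start were searched on both strands for GAGGAA, the core bound by PU.1, the transcription factor that sets up the macrophage lineage, and for TGACTCA, the site of AP-1, the Fos and Jun dimer. Promoters of Trem2 and Cd68 are shown as examples. Trem2 had the largest difference between genotypes under vehicle among the 10 genes, and Cd68 alone among the 7 held an AP-1 site. Aif1, which also holds a PU.1 core, had a larger vehicle difference than Cd68 and is not shown. Capitals mark the motifs (TTCCTC is GAGGAA and TGAGTCA is TGACTCA read on the other strand).
Trem2, chr17:48346151-48346400, plus strand: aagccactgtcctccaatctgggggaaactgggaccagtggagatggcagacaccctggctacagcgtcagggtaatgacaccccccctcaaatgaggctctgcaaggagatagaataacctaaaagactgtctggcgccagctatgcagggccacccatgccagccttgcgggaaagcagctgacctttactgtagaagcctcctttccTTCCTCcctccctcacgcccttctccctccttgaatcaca
Cd68, chr11:69666171-69666420, minus strand: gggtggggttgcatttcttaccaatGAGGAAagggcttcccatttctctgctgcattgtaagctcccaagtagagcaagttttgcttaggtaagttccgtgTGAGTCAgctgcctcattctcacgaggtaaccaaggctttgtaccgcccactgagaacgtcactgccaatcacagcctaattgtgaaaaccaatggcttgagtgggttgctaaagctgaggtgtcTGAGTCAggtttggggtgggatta

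The Trem2 window held 1 PU.1 core, 40 to 35 bases before the start and on the opposite strand. The Cd68 window held 1 PU.1 core 225 to 220 bases before the start, on the same strand, and 2 AP-1 sites, at 149 to 143 and 24 to 18 bases before it. Among the 7 genes the PU.1 core was found for 4 (Mrc1, Cd68, Aif1 and Trem2), and 23.3% of all 32851 mouse promoter windows of this length hold it. The AP-1 site was found for 1 of the 7 (Cd68), against 4.46% of all windows. These are matches of letters, not measured sites.

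Lyz2, lysozyme of macrophages and granulocytes, has a related neighbour on chromosome 10, Lyz1, the lysozyme of intestinal Paneth cells. Reads of the pair can be confused where their transcripts are alike. In the GENCODE M21 transcripts, 15.4% of all 50-base stretches of Lyz2 also occur in Lyz1, and 1.97% of all 100-base stretches. The read length is not given in the sources used here, so part of the Lyz2 counts is uncertain. Lyz1 was low throughout, at 0.856 to 2.99 CPM in the 8 libraries, and adding its reads to those of Lyz2 changed no count of genes called.

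The receptors that define the lineage were lowest in iKO vehicle. Csf1r, the receptor for CSF1 and IL-34 on which macrophage survival depends, stood at 58.2 and 43.5 CPM with vehicle and 25.7 and 60.3 CPM with CFA in WT mice, and 21.6 and 21.2 CPM with vehicle and 57.3 and 56.8 CPM with CFA in iKO mice. Cx3cr1, the receptor for the neuronal chemokine fractalkine, stood at 19.4 and 9.98 CPM with vehicle and 7.26 and 15.6 CPM with CFA in WT mice, and 5.66 and 5.57 CPM with vehicle and 15.1 and 16.9 CPM with CFA in iKO mice. For both genes the iKO CFA libraries lay between the pair of WT vehicle libraries, the WT CFA libraries overlapped with WT vehicle, and both iKO vehicle libraries lay below all 6 others.

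Adgre1, which encodes the surface marker F4/80, stood at 28.7 and 21.8 CPM with vehicle and 10.1 and 21.2 CPM with CFA in WT mice, and 9.93 and 7.64 CPM with vehicle and 20.9 and 20.7 CPM with CFA in iKO mice. Aif1, which encodes the actin-bundling protein IBA1 used to stain macrophages, stood at 26.3 and 20.2 CPM with vehicle and 2.27 and 10.4 CPM with CFA in WT mice, and 3.01 and 1.69 CPM with vehicle and 6.60 and 6.30 CPM with CFA in iKO mice. WT vehicle was above every other library for both genes. For Aif1 the means of WT CFA, 6.34 ± 5.75 CPM (SD, n = 2), and iKO CFA, 6.45 ± 0.208 CPM (SD, n = 2), did not differ beyond the spread of the WT CFA pair.

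Among the uptake and lysosome genes, Mrc1 varied least over the groups and Lyz2 and Cd68 varied more. Mrc1, the mannose receptor of resident macrophages, stood at 34.8 and 27.6 CPM with vehicle and 16.3 and 45.4 CPM with CFA in WT mice, and 16.2 and 15 CPM with vehicle and 28.3 and 30.1 CPM with CFA in iKO mice. Cd163, the scavenger receptor for haemoglobin bound to haptoglobin, stood at 8.68 and 6.97 CPM with vehicle and 2.83 and 7.05 CPM with CFA in WT mice, and 2.97 and 2.55 CPM with vehicle and 6 and 6.85 CPM with CFA in iKO mice. In both genes the iKO vehicle mean was the lowest, and the WT CFA pair reached from near the iKO vehicle level to the WT vehicle level or above.

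Cd68, a glycoprotein of lysosome membranes, stood at 16.7 and 10 CPM with vehicle and 2.51 and 5 CPM with CFA in WT mice, and 3.33 and 1.18 CPM with vehicle and 6.42 and 8.88 CPM with CFA in iKO mice. Lyz2 stood at 432 and 306 CPM with vehicle and 80 and 230 CPM with CFA in WT mice, and 87.3 and 55.9 CPM with vehicle and 443 and 488 CPM with CFA in iKO mice. WT vehicle was highest for Cd68 and iKO CFA was highest for Lyz2, each with both libraries above all libraries of the other groups. WT CFA and iKO vehicle overlapped for both genes.

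The receptors that sense microbial and lipid ligands were highest in WT vehicle and lowest in iKO vehicle. Cd14, the co-receptor that hands lipopolysaccharide to TLR4, stood at 30.2 and 33.6 CPM with vehicle and 4.59 and 6.54 CPM with CFA in WT mice, and 4.34 and 2.67 CPM with vehicle and 7.08 and 5.04 CPM with CFA in iKO mice. Trem2, a receptor for lipids and cell debris, stood at 12.6 and 8.31 CPM with vehicle and 2.19 and 3.94 CPM with CFA in WT mice, and 0.564 and 0.947 CPM with vehicle and 3.53 and 1.51 CPM with CFA in iKO mice. For both genes the WT vehicle libraries lay above and the iKO vehicle libraries below all others, while the WT CFA and iKO CFA libraries overlapped. The Trem2 values in iKO vehicle rest on 23 and 33 reads, the fewest of any group mean among the 10 genes.

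**Figure D1:**
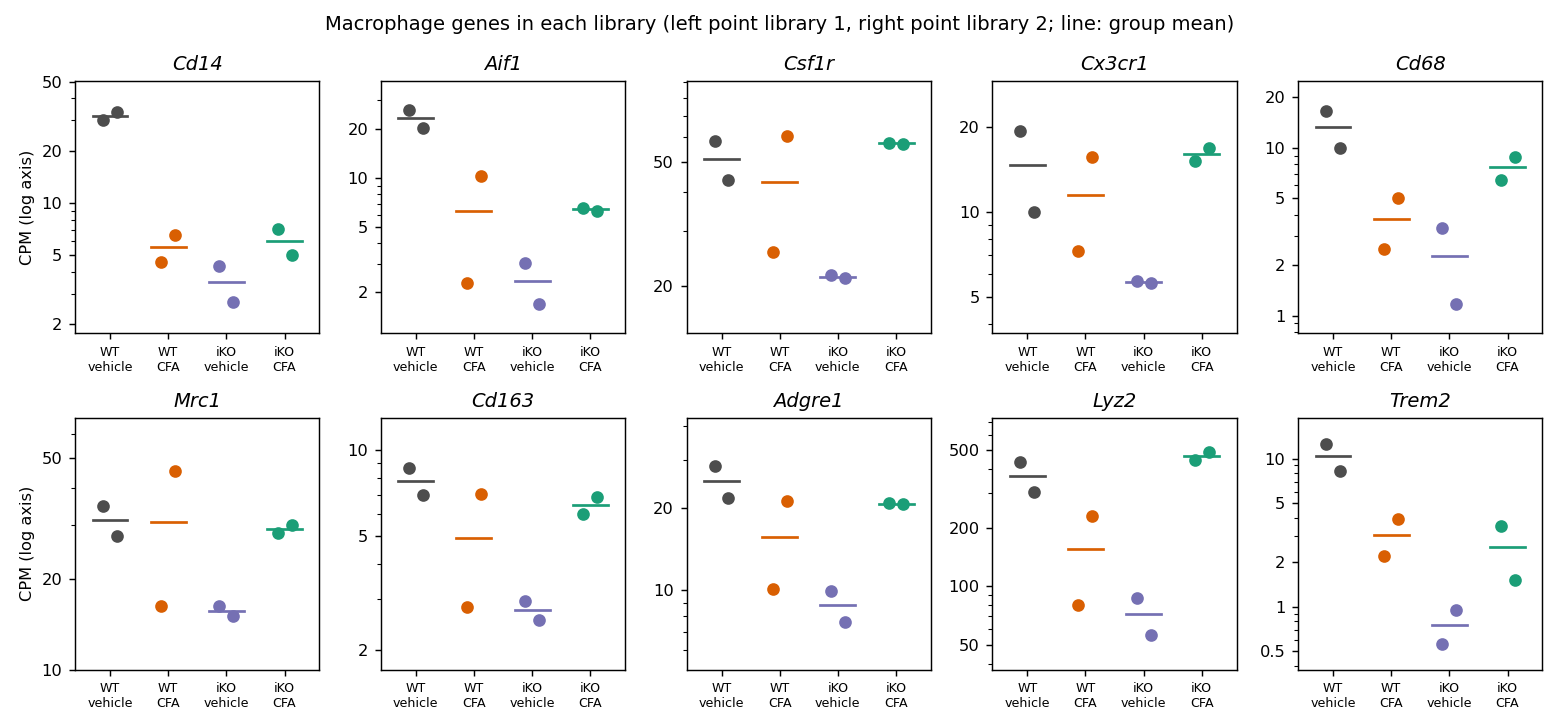
CPM of each macrophage gene on a logarithmic axis by group, with 1 point per library (library 1 left, library 2 right) and a line at the mean of 2 libraries. All 10 genes have their lowest group mean in iKO vehicle, and Cd14 and Aif1 in WT vehicle lie above every other library.

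For all 10 genes the group with the lowest mean was iKO vehicle. WT vehicle had the highest mean for 7 of them (Cd14, Aif1, Cd68, Mrc1, Cd163, Adgre1 and Trem2), and iKO CFA for Csf1r, Cx3cr1 and Lyz2. The ratio of the highest to the lowest group mean ran from 2 for Mrc1 through 2.66 for Csf1r to 9.11 for Cd14, 9.88 for Aif1 and 13.8 for Trem2. Levels were not compared between genes, because the counts are not scaled by gene length.

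The WT CFA pair was the least alike. All 10 genes were higher in WT CFA library 2 than in library 1, by 1.42 times for Cd14 to 4.58 times for Aif1 with a median of 2.25. The same ratio had a median of 0.753 in WT vehicle, 0.815 in iKO vehicle and 1.03 in iKO CFA. WT CFA library 2 also held more of other non-neuronal cell types: summed myelinating Schwann cell genes were at 18200 CPM against 7520 CPM in library 1, summed red cell genes at 1540 against 179 CPM and summed neutrophil genes at 258 against 31.6 CPM, while summed sensory neuron genes were at 16700 against 24600 CPM. Their part in the macrophage values was not tested.

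Under vehicle, most of the macrophage genes were lower in iKO than in WT. Trem2 was 13.8-fold lower in iKO vehicle than in WT vehicle (log2 fold change -3.79 ± 0.55 (SE), adjusted p = 0.00431 by edgeR's quasi-likelihood test with Benjamini-Hochberg adjustment over all genes, as for all adjusted p below). Aif1 differed by -3.30 ± 0.63 (adjusted p = 0.0119), Cd14 by -3.18 ± 0.33 (0.00111), Cd68 by -2.55 ± 0.54 (0.0164) and Lyz2 by -2.36 ± 0.46 (0.013). Adgre1 differed by -1.52 ± 0.34 (adjusted p = 0.0201), Cd163 by -1.50 ± 0.41 (0.0399), Cx3cr1 by -1.38 ± 0.41 (0.0477) and Csf1r by -1.25 ± 0.35 (0.0421). Mrc1 was 2-fold lower, with both iKO libraries below both WT libraries, and did not pass (-1 ± 0.40, adjusted p = 0.112).

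In all, 9 of 10 genes passed as lower in iKO vehicle, where 9.33% of all 20235 genes tested passed as lower, 8.28% as higher and 17.6% in either direction. The iKO and WT vehicle libraries did not overlap for any of the 10, all lower, against 36.5% of all genes that were lower and 38.9% that were higher without overlap. The median of the 10 differences was -1.94 on the log2 scale, against 0.01 over all genes. Without WT vehicle library 1 or without iKO vehicle library 2, 2 of the 10 passed (Cd14 and Trem2), and without iKO vehicle library 1, 3 passed (Cd14, Trem2 and Cd68). Without WT vehicle library 2, 7 passed, Csf1r (adjusted p = 0.0814) and Cd163 (0.0882) being lost, and without either iKO CFA library 6 passed, with Csf1r, Cx3cr1 and Cd163 lost. All 10 passed without WT CFA library 1, library 2 or both, fits in which 39.2%, 38.9% and 41.6% of all genes passed in either direction. Cd14 (adjusted p at most 0.0149) and Trem2 (at most 0.0482) passed without each library in turn.

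In WT mice, 3 of the macrophage genes were lower after CFA than after vehicle. Cd14 fell 5.74-fold (-2.52 ± 0.32, adjusted p = 0.00307), Cd68 fell 3.57-fold (-1.83 ± 0.52, 0.045) and Trem2 fell 3.42-fold (-1.77 ± 0.50, 0.0422). Aif1 was 3.69-fold lower and did not pass (-1.88 ± 0.59, adjusted p = 0.0597), nor did Lyz2 (-1.25 ± 0.45, 0.0863). Mrc1 differed by -0.02 ± 0.39 (adjusted p = 0.981), Csf1r by -0.25 ± 0.34 (0.665), Cx3cr1 by -0.36 ± 0.40 (0.571), Cd163 by -0.67 ± 0.40 (0.284) and Adgre1 by -0.69 ± 0.33 (0.184).

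These 3 of 10 passed as lower, where 8.71% of all genes passed as lower, 8.12% as higher and 16.8% in either direction. In 6 of 10 (Cd14, Aif1, Cd68, Adgre1, Lyz2 and Trem2) both WT CFA libraries lay below both WT vehicle libraries, against 30.8% of all genes, and in the other 4 the groups overlapped. Cd14 passed without each library in turn (adjusted p at most 0.0319). Cd68 and Trem2 lost their calls without WT vehicle library 1 (adjusted p = 0.288 and 0.277), WT vehicle library 2 (0.0829 and 0.0883) or WT CFA library 1 (0.0571 and 0.0553). Cd68 also lost it without iKO CFA library 1 (0.0743) or 2 (0.0764), and Trem2 without iKO vehicle library 1 (0.0623) or 2 (0.0628). With WT CFA library 2 left out all 10 passed as lower, and with WT CFA library 1 left out Cd14 and Aif1 (-1.17, 0.0158) passed as lower and Mrc1 as higher (0.53, 0.0349). In these fits 29.9% and 34.6% of all genes passed in either direction.

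In iKO mice, the same 10 genes were at higher levels after CFA than after vehicle, and none passed the threshold. Lyz2 was 6.50-fold higher (2.70 ± 0.47, adjusted p = 0.0831), Cd68 3.37-fold (1.75 ± 0.53, 0.104), Trem2 3.33-fold (1.74 ± 0.53, 0.105) and Cx3cr1 2.85-fold (1.51 ± 0.41, 0.0994). Aif1 differed by 1.45 ± 0.60 (adjusted p = 0.158), Csf1r by 1.41 ± 0.35 (0.0945), Adgre1 by 1.24 ± 0.34 (0.0994) and Cd163 by 1.22 ± 0.41 (0.114). The smallest differences were those of Mrc1 (0.90 ± 0.40, adjusted p = 0.174) and Cd14 (0.79 ± 0.31, 0.145).

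By edgeR's test 0 of 10 passed, as 0.0395% of all genes did. All 10 had an unadjusted p under 0.05, as 28.6% of all genes did, and in all 10 both CFA libraries lay above both vehicle libraries, as for 33.9% of all genes, while 35.6% lay lower without overlap. DESeq2's Wald test called 6 of 10 as higher (Csf1r, Cx3cr1, Cd68, Adgre1, Lyz2 and Trem2), where it called 15.6% of all genes. With WT CFA library 1, WT CFA library 2 or both left out of the shared estimate of the spread, edgeR called all 10, and with the iKO libraries fitted alone it called 9. In those fits it called 32.2%, 32%, 34.9% and 45.3% of all genes.

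Under CFA the genotypes were closer. Lyz2 was at a 3.01-fold higher level in the iKO libraries (1.59 ± 0.45, adjusted p = 0.145) and Cd68 2.05-fold higher (1.03 ± 0.52, 0.396), both with no overlap between the libraries. The other 8 genes differed by -0.28 (Trem2) to 0.49 (Cx3cr1) on the log2 scale, with overlapping libraries. By edgeR 0 of 10 passed, against 1.7% of all genes, 1 (Lyz2) had an unadjusted p under 0.05 against 14.7%, and DESeq2 called 1 (Lyz2, 1.56, adjusted p = 0.0152, against 0.000266 to 0.52 over the alternatives tried for it). The 2 of 10 that were higher without overlap compare with 21.6% of all genes. The values turn on WT CFA library 2: without it all 10 fold changes moved up and 7 of 10 passed as higher, where 26.8% of all genes passed in either direction, among them Lyz2 (2.53, adjusted p = 0.000266), Aif1 (1.5, 0.01) and Csf1r (1.15, 0.00136), while Cd68 (1.6, 0.05 after rounding), Cd14 (0.39, 0.389) and Trem2 (0.19, 0.829) did not. Without WT CFA library 1 none of the 10 passed.

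The response to CFA itself was compared between genotypes by the interaction, the CFA difference in iKO minus that in WT. It passed as higher in iKO for 6 of 10 genes, where 6.19% of all genes passed as higher, 3.17% as lower and 9.36% in either direction: Lyz2 (3.95 ± 0.64, adjusted p = 0.0109), Cd68 (3.59 ± 0.74, 0.025), Trem2 (3.51 ± 0.73, 0.0248), Aif1 (3.33 ± 0.84, 0.0438), Cd14 (3.31 ± 0.44, 0.00538) and Adgre1 (1.93 ± 0.47, 0.0409). Cd163 (1.89 ± 0.58, adjusted p = 0.0721), Cx3cr1 (1.87 ± 0.57, 0.0705), Csf1r (1.66 ± 0.49, 0.0667) and Mrc1 (0.92 ± 0.56, 0.287) did not pass. This contrast contains the vehicle difference between genotypes, so it is not a separate observation.

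Cd14 kept its interaction without each library (adjusted p at most 0.0385). Leaving out WT vehicle library 1 or iKO vehicle library 2 left Cd14 alone past the threshold, with Lyz2 at 0.0672 and 0.0518. Without iKO CFA library 1, 2 passed (Cd14 and Lyz2), without iKO CFA library 2, 3 (Cd14, Lyz2 and Trem2), without iKO vehicle library 1, 3 (Cd14, Cd68 and Lyz2), and without WT vehicle library 2, 4, with Aif1 and Adgre1 lost. Without WT CFA library 1, 9 passed, where 21.4% of all genes did, and without WT CFA library 2, 10, where 38.2% did.

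**Figure D2:**
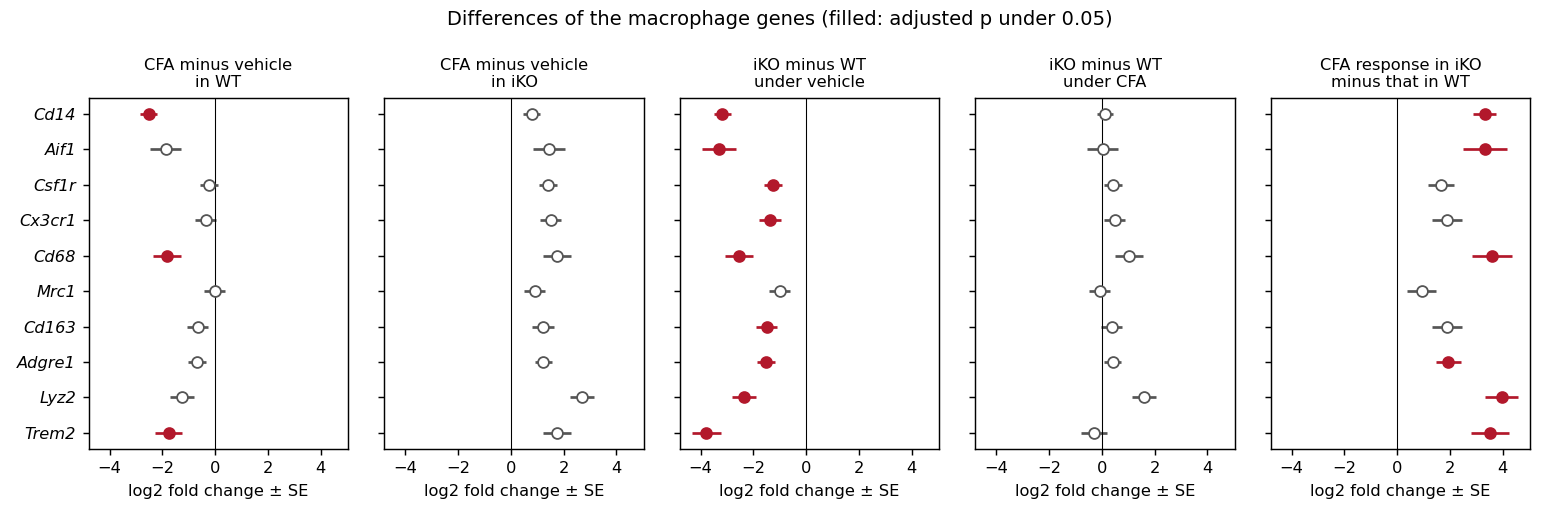
Log2 fold change ± SE of each macrophage gene in the 5 comparisons, from 2 libraries per group, with filled symbols for adjusted p under 0.05. In iKO against WT under vehicle 9 of 10 symbols are filled and all lie below 0, and for CFA in iKO all 10 lie above 0 with none filled.

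The 10 genes moved together only in part. Over the 45 pairs of genes, the correlation of log2 CPM across the 8 libraries ran from 0.51 (Cd14 and Cx3cr1) to 0.99 (Cd163 and Adgre1), with a median of 0.88, and all values share the same libraries. Each gene was then set against the mean of the other 9 in the same library and centred over the 8 libraries. On that scale Cd14 was at 0.79 and 1.45 in WT vehicle and between -1 and 0.16 elsewhere, and Aif1 at 0.87 and 0.95 in WT vehicle and between -0.73 and 0.33 elsewhere. Csf1r was at -0.77 and -0.74 in WT vehicle and between 0.12 and 0.49 elsewhere, and Mrc1 at -0.85 and -0.73 in WT vehicle and between -0.20 and 0.68 elsewhere. Trem2 was also higher in WT vehicle (1.05 and 0.89) than in the other 6 libraries (-1.31 to 0.57), and Cx3cr1, Cd163 and Adgre1 were lower there than in the other 6.

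Lyz2 had another pattern: it was at 0.87 and 1.11 relative to the other 9 genes in iKO CFA and between -0.57 and -0.15 in all other libraries. Lyz2 is also made by granulocytes and monocytes. Summed over 13 neutrophil genes, iKO CFA was at 1560 and 1570 CPM against 30.9 to 258 CPM in the other libraries, with S100a8, a granulocyte calcium-binding protein, at 344 and 327 CPM against 3.69 to 57.7 CPM and Ly6g, the defining neutrophil surface marker, at 5.42 and 5.15 CPM against 0 to 1.27 CPM. Summed over 12 monocyte genes, iKO CFA was at 371 and 428 CPM against 83.1 to 295 CPM. The part of these cells in the Lyz2 values was not tested.

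**Figure D3:**
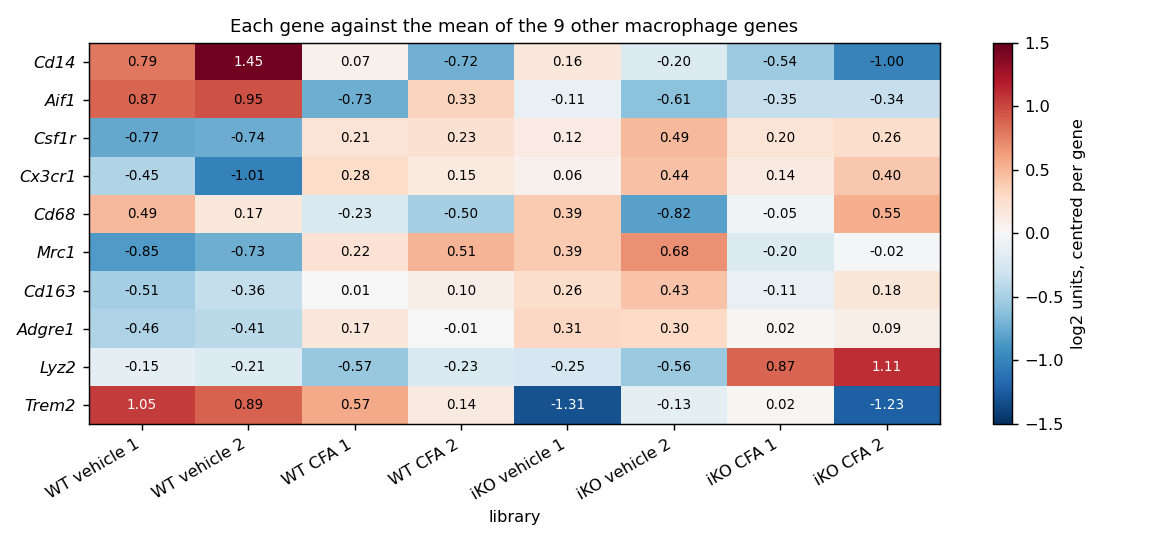
Log2 level of each macrophage gene (rows) relative to the mean of the other 9 in each of the 8 libraries (columns), centred per gene, with red above 0 and blue below. Cd14 and Aif1 are red and Csf1r and Mrc1 blue in both WT vehicle libraries, and Lyz2 is red in iKO CFA at 0.87 and 1.11.

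Other non-neuronal cells varied over the libraries as well. The mean log2 CPM of the 10 macrophage genes was 4.94 and 4.49 with vehicle and 2.88 and 4.09 with CFA in WT mice, and 2.72 and 2.35 with vehicle and 4.05 and 3.98 with CFA in iKO mice. The mean of 33 genes of satellite glia, Schwann cells, fibroblasts and endothelium, chosen as a reference after the values were seen, was 6.60 and 6.15, 5.97 and 6.72, 5.83 and 5.99, and 6.88 and 6.95 in the same order. The mean of 16 sensory neuron genes was 8.73 and 9.13, 9.71 and 8.98, 9.64 and 9.65, and 8.84 and 8.75. WT CFA library 1 and both iKO vehicle libraries were thus the 3 with the highest neuronal and the lowest macrophage means.

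Relative to the 33 reference genes, the macrophage mean was at -1.66 and -1.67 in WT vehicle and from -3.64 to -2.63 in the other 6 libraries, with iKO vehicle at -3.11 and -3.64 and iKO CFA at -2.83 and -2.97. On this scale WT vehicle stayed above all other libraries, and iKO CFA lay above iKO vehicle by less than on the CPM scale. Single genes differed: relative to the same reference, Csf1r was at -0.73 and -0.71 in WT vehicle against -1.39 and -1.58 in iKO vehicle, while Cd14 was at -1.68 and -1.08 against -3.70 and -4.55. Lyz2 was at 2.16 and 2.10 in WT vehicle and 1.91 and 1.98 in iKO CFA, against 0.62 and -0.19 in iKO vehicle. On this scale iKO CFA lay above iKO vehicle without overlap for 3 of 10 genes (Csf1r, Cx3cr1 and Lyz2) and overlapped with it for the other 7. Among these, Cd14 was at -4.05 and -4.59 in iKO CFA against -3.70 and -4.55 in iKO vehicle. Mrc1 was at -2.06 and -2.03 against -1.81 and -2.08. The share of all genes without overlap was not computed on this scale, so the counts given for it have no background. The separation after CFA in iKO that all 10 genes had in CPM was thus kept for 3 relative to these other non-neuronal cells. Overlap of 2 against 2 libraries does not show that the other 7 did not rise. Cd68, for example, was at -4.19 and -3.79 in iKO CFA against -4.07 and -5.69 in iKO vehicle. WT vehicle lay above iKO vehicle without overlap for all 10.

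Of the ligands of the lineage receptors, 1 of 3 passed as lower in iKO under vehicle, where 9.33% of all genes did. Csf1, Il34, Cx3cl1 and Tyrobp are given for their role and were chosen after values were seen. In iKO against WT under vehicle, Csf1, the main CSF1R ligand, was lower (-1.04 ± 0.23, adjusted p = 0.0202), a call lost without WT vehicle library 1 (0.185), iKO vehicle library 1 (0.12) or iKO vehicle library 2 (0.162). Il34, the other CSF1R ligand, differed by -0.17 ± 0.22 (adjusted p = 0.623), and Cx3cl1, which encodes fractalkine, by -0.25 ± 0.30 (0.586).

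Among 14 genes of the CSF1 axis and of the transcription factors that specify macrophages, 9 passed as lower in iKO vehicle and none as higher, with a median of -1.39 on the log2 scale. Csf2rb, the shared beta chain of the GM-CSF and IL-3 receptors, differed by -3.77 ± 0.38 (adjusted p = 0.00103) and Irf8, a lineage transcription factor, by -3.00 ± 0.43 (0.00405). After CFA in WT 6 of the 14 passed as lower, Csf2rb by -3.13 ± 0.37 (adjusted p = 0.00229) among them, and the interaction passed as higher for 5. Over all genes, 9.33% passed as lower in iKO vehicle, 8.71% as lower after CFA in WT and 6.19% as higher in the interaction. As higher in iKO under CFA 1.5% passed, and these shares are the background for the lists below as well. The vehicle calls of Csf2rb and Irf8 were kept without each library, whereas the count over the list fell from 9 to 3 without WT vehicle library 1 or iKO vehicle library 2. Without WT vehicle library 1 the count after CFA in WT was 2 in place of 6, and that of the interaction 3 in place of 5.

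Of 21 genes of the CD14 and TLR4 pathway, 9 passed as lower in iKO vehicle and 7 as lower after CFA in WT, with medians of -0.71 and -0.67. Those with the smallest p were subunits and feedback regulators of NF-kB: in iKO vehicle Tnfaip3 differed by -2.26 ± 0.24 (adjusted p = 0.00128) and Nfkbiz by -3.58 ± 0.45 (0.00269), both kept without each library. These are also genes that respond quickly to stimulation, and the WT vehicle libraries were the ones with the high sums of immediate early genes. Whether stimulation has a part in these differences was not tested. Without WT vehicle library 1 these counts of 9 and 7 were 2 and 1, and without iKO vehicle library 2 the former was 2.

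Of 15 genes of the TREM2 pathway, 10 passed as lower in iKO vehicle (median -2.40). After CFA in WT (median -1.88) 8 passed as lower and 1 as higher (the tetraspanin Cd9), and 9 passed as higher in the interaction. By summed CPM the list was not lower in iKO vehicle (4230 and 4410 CPM) than in WT vehicle (3970 and 3590 CPM). Ms4a6d, a membrane protein of the MS4A family, differed by -3.54 ± 0.29 (adjusted p = 0.00051) and Gpnmb, a glycoprotein of lipid-laden phagocytes, by -2.32 ± 0.28 (0.00223) in iKO vehicle, both kept without each library. Tyrobp, the adaptor through which TREM2 signals, differed by -2.23 ± 0.61 (adjusted p = 0.0394) and lost its call without any of the WT vehicle, iKO vehicle or iKO CFA libraries (adjusted p from 0.0681 to 0.221). The call of Cd9 after CFA in WT (0.82, adjusted p = 0.0314) was kept only when a WT CFA library was the one left out, and was 0.0865 to 0.151 without each of the other 6. The list's count in iKO vehicle fell from 10 to 2 without WT vehicle library 1 and to 3 without iKO vehicle library 2, and without WT vehicle library 1 the count after CFA in WT fell from 9 to 2 and that of the interaction from 9 to 3.

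Of 25 further core macrophage genes, such as the complement C1q chains and NADPH oxidase subunits, 20 passed as lower in iKO vehicle (median -2.19), 10 as lower and 1 as higher (Coro1a, an actin regulator) after CFA in WT (median -1.21), and 20 as higher in the interaction (median 2.94). Ptprc, the pan-leukocyte phosphatase CD45, differed by -3.96 ± 0.39 (adjusted p = 0.000979) in iKO vehicle, Cd53, a leukocyte tetraspanin, by -3.11 ± 0.37 (0.00201) and Mertk, the receptor for engulfing dead cells, by -2.16 ± 0.30 (0.00375), all kept without each library. Coro1a did not pass when WT vehicle library 1 (adjusted p = 0.124) or 2 (0.051) was left out. The 20 lower calls of this list in iKO vehicle fell to 4 without WT vehicle library 1 or iKO vehicle library 2, and without the former library its 11 calls after CFA in WT fell to 2 and its 20 in the interaction to 4. Under CFA 4 passed as higher in iKO, Itgam (1.88 ± 0.35, adjusted p = 0.0394), Cybb (2.25 ± 0.42, 0.0399), Ptprc (1.93 ± 0.37, 0.0419) and Itgb2 (2.21 ± 0.44, 0.0483), and each lost its call without either iKO CFA library (adjusted p from 0.136 to 0.251) or either WT vehicle library (0.0837 to 0.0993). Itgam and Ptprc also lost it without either iKO vehicle library (0.0537 to 0.0641).

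Of 13 tested markers of MRC1-type resident macrophages, 5 passed as lower in iKO vehicle (Stab1, Timd4, Clec10a, Pf4 and Igf1) and 1 as higher (Gas6), with a median of -0.90, and 2 as lower (Stab1 and Timd4) and 1 as higher (Gas6) after CFA in WT, with a median of -0.28. Over all genes 17.6% and 16.8% passed in either direction in these comparisons, so the count after CFA in WT was near the background. The count after CFA in WT fell from 3 to 0 without WT vehicle library 1 or 2, and Stab1 (adjusted p from 0.0689 to 0.0754) and Gas6 (0.114 to 0.124) also lost these calls without any one of the iKO libraries. Timd4, a receptor for dying cells, was under 3 CPM in all libraries. By summed CPM the list was not lower in iKO vehicle (234 and 261 CPM) than in WT vehicle (217 and 202 CPM). The summed core macrophage genes were lower, at 675 and 609 CPM against 1490 and 1180 CPM. Gas6, a ligand of MERTK, was the gene higher in iKO vehicle (0.93 ± 0.18, adjusted p = 0.0118), a call lost without WT vehicle library 1 (0.123), iKO vehicle library 1 (0.0738) or 2 (0.133). The calls of Stab1 (adjusted p = 0.13), Timd4 (0.0942), Clec10a (0.149), Pf4 (0.0932) and Igf1 (0.279) in iKO vehicle were lost without WT vehicle library 1, and the list's count fell from 6 to 0 without it or without either iKO vehicle library. Of 7 genes of the CD163 and haem handling list, 1 passed under CFA, the haemoglobin scavenger Hp, higher in iKO (3.40 ± 0.47, adjusted p = 0.0118) and lost without iKO CFA library 1 (0.0569) or 2 (0.0848).

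After CFA in iKO, 0 genes of the CSF1, TLR4, TREM2, core and MRC1-type lists passed by edgeR. An unadjusted p under 0.05 was reached by 9 of 14, 5 of 21, 9 of 15, 22 of 25 and 7 of 13, and DESeq2 called 8, 4, 6, 20 and 6. Over all genes these shares were 28.6% and 15.6%, so the TLR4 list was near the background. Of 8 listed microglia markers, 2 passed as lower (P2ry13 and Siglech) and 1 as higher (Olfml3) in iKO vehicle (median -0.69). After CFA in WT (median -0.43) 1 passed as higher (Fcrls) and none as lower. In either direction 17.6% and 16.8% of all genes passed in these comparisons. Olfml3 was also higher in iKO under CFA (2.18, adjusted p = 0.0147). None of these calls was kept without each library. Under CFA, 2 genes of the TREM2 list passed as higher in iKO, Ms4a6d (1.56 ± 0.27, adjusted p = 0.0295) and Itgax (2.56 ± 0.51, 0.0483). Both lost their calls without WT vehicle library 1 or 2, iKO vehicle library 1 or 2, or iKO CFA library 1 or 2 (adjusted p from 0.0612 to 0.283), and Itgax also without WT CFA library 1 (0.0722).

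Summed levels of lymphocyte and dendritic cell genes were also highest in WT vehicle. Summed over 9 T and NK cell genes, WT vehicle was at 66.2 and 51.1 CPM against 3.63 to 17.2 CPM in the other libraries, and summed over 11 dendritic cell genes at 1750 and 1320 CPM against 233 to 705 CPM. Most of the latter sum came from Cd74 (762 and 541 CPM in WT vehicle), H2-Aa (416 and 302 CPM) and H2-Ab1 (416 and 299 CPM), antigen presentation genes that macrophages also express. Flt3, Zbtb46, Cd209a and H2-Eb1 did not have both WT vehicle libraries above all others. Flt3, a growth factor receptor of dendritic cells, had 14.1 and 20.1 CPM in WT vehicle against 23.2 and 21.7 CPM in iKO vehicle. Skeletal muscle genes summed to 441 CPM in WT vehicle library 1 against 2.70 to 8.31 CPM in the remaining 7. No listed gene of these cell types was at 0 in all libraries. Whether these cells contribute to the macrophage gene counts was not tested.

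**Figure D4:**
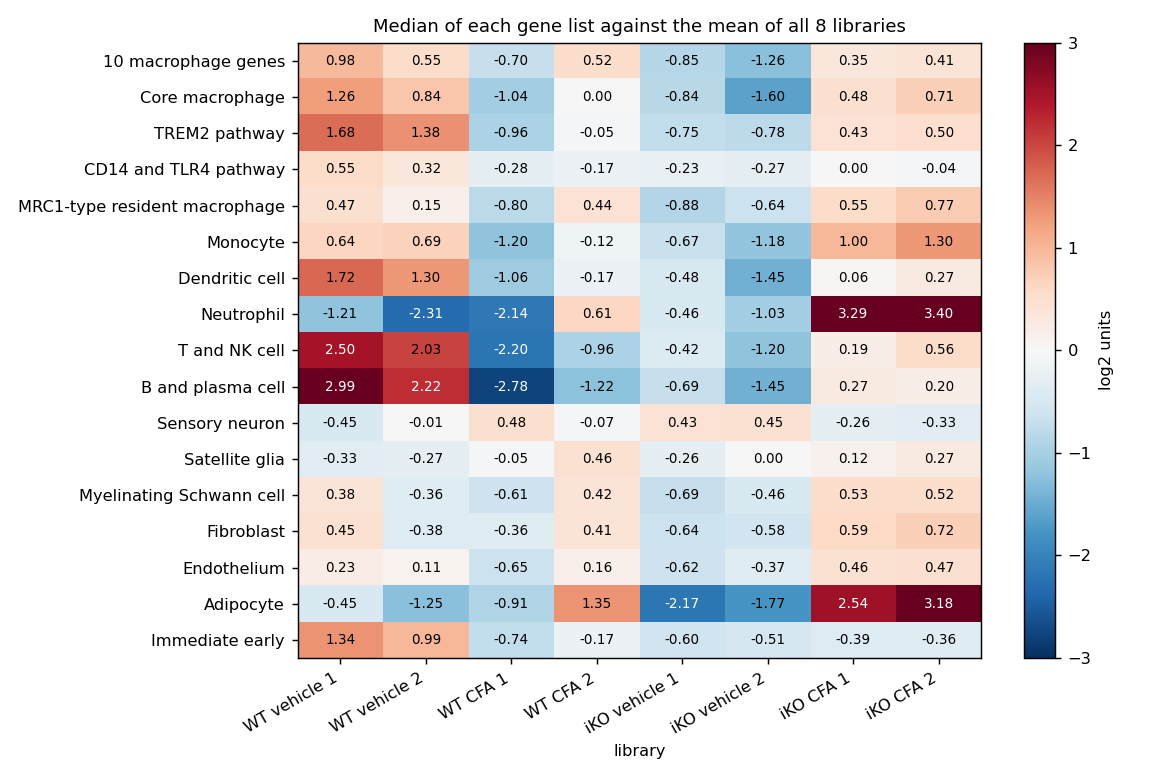
Median over the genes of each list (rows) of the log2 level in a library (columns) minus that gene's mean over the 8 libraries, with red above 0 and blue below. The 10 macrophage genes are highest in WT vehicle (0.98 and 0.55) and lowest in iKO vehicle (-0.85 and -1.26), and the neutrophil list is highest in iKO CFA (3.29 and 3.40).

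Among 13668 genes with a mean log2 CPM of at least 1, those whose log2 CPM over the 8 libraries was most like the mean of the 10 macrophage genes were Pycard (r = 0.995), C1qc (0.994), Ifrd1 (0.993), Rps27l (0.992) and C1qa (0.991). Those most like Cd14 were Tbc1d31 (0.993), Dcaf17 (0.989), Rdh10 (0.988), Rps18-ps5 (0.988) and Gfap (0.985). The points share their libraries, and no p is given. C1qa, the A chain of complement C1q, stood at 142 and 102 CPM with vehicle and 28.3 and 97.5 CPM with CFA in WT mice, and 25.2 and 18.3 CPM with vehicle and 68.0 and 74.3 CPM with CFA in iKO mice. WT vehicle held the highest C1qa values and iKO vehicle the lowest, with WT CFA library 2 just below WT vehicle. Gfap, an intermediate filament of glia, reached 31.2 and 27.3 CPM in the WT vehicle pair against 1.18 to 4.31 CPM in the remaining 6 libraries, which is the pattern of Cd14.

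Aif1, Trem2 and Adgre1 lie on chromosome 17, as Ehmt2 does, with 27, 277 and 368 protein-coding genes between each and Ehmt2 in the RefSeq annotation of GRCm38.p6. The other 7 genes lie on other chromosomes. In iKO vehicle the 3 linked genes differed by -3.30, -3.79 and -1.52 on the log2 scale, and the other 7 by -3.18 (Cd14) to -1 (Mrc1).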

How the data were processed

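The deposited values are raw read counts for 25780 gene symbols in each of 8 libraries. Per the submitters' processing notes, the authors aligned reads with HISAT2 2.2.1 to GRCm39 (mm39), used SAMtools 1.19.2 and featureCounts 2.0.6, and name DESeq2. Strand setting, read length and annotation are not given in the sources used here.

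Genes were filtered with filterByExpr (20235 kept, at least 99.94% of reads), scaled by edgeR's TMM method, and fitted with edgeR 4.0.16 in R 4.3.3: 1 quasi-likelihood model of 4 groups over all 8 libraries, with two-sided F-tests adjusted by Benjamini-Hochberg over all genes (threshold 0.05). CPM use the TMM-scaled library sizes. The 5 comparisons were CFA against vehicle in each genotype, iKO against WT under each treatment, and their interaction. On simulated counts the fit recovered 63 of 90 genes changed by 1 and 108 of 110 changed by 2 on the log2 scale, with 9 false calls among 19137 genes, for CFA against vehicle in WT. The simulated spread was equal in all groups and smaller than the common dispersion of 0.0753, edgeR's measure of spread, fitted to the data. These rates therefore do not give the recovery in the data, where the WT CFA pair was the least alike. No pair of libraries shared more than 1.23% of gene counts, so no count file was a copy of another. Libraries from the same RNA or animal would also differ in their counts, so this check cannot tell whether the samples are separate.

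The 10 genes and the gene lists were chosen with earlier results of these data known. Named are all 10 genes, Ehmt2 and Lyz1, at most 4 genes per list and comparison by smallest p, and the 5 most alike in pattern; other genes, such as Csf1, Il34, Cx3cl1, Tyrobp, Cd9, Pf4 and Igf1, were chosen after their values were seen. Alternatives were other scalings, no filter, DESeq2 1.42.0, legacy = FALSE, a replicate block, fewer groups, and each library left out. Some genes counted in the lists are not reported here by name. Trac, Trbc2, Igkc, Ighm and Lep were not analysed here.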

Additional observations from a re-analysis of the deposited data

Results flagged for a closer look

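The response to CFA differed between iKO and WT, by the test of the interaction, for Lyz2 (3.95 on the log2 scale), Cd68 (3.59), Trem2 (3.51), Aif1 (3.33), Cd14 (3.31) and Adgre1 (1.93). The sign comes from lower mean levels after CFA in WT and higher mean levels after CFA in iKO. The contrast also holds the vehicle difference between genotypes. By edgeR's test none of these genes passed for CFA in iKO (adjusted p from 0.0831 for Lyz2 to 0.158 for Aif1). For CFA in WT, Aif1 (adjusted p = 0.0597), Lyz2 (0.0863) and Adgre1 (0.184) did not pass. Groups of 2 libraries are too small for a check of single libraries against their group.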

How the results depend on the processing

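Over 50 results of single genes and 19 settings, 660 of 830 values kept their direction and side of the threshold, 83 came to pass, 71 no longer passed and 16 turned sign. For CFA in WT, 3 of 10 genes passed as reported, 5 with DESeq2, 1 with the replicate block and 1 with only the groups compared. For CFA in iKO, 0 passed as reported, 2 with no filter on low counts, 6 with DESeq2 and 1 with legacy = FALSE. In the same comparison 9 passed with only the groups compared and 10 without both WT CFA libraries, the pair that was least alike. Why these counts were higher was not tested. For iKO against WT under CFA, 0 passed as reported and 1 with DESeq2. Leaving out 1 library at a time, the counts ran from 1 to 10 for CFA in WT, 0 to 10 for CFA in iKO, 2 to 10 for iKO against WT under vehicle, 0 to 7 under CFA and 1 to 10 for the interaction. Signs turned in iKO against WT under CFA for Aif1 with DESeq2 (-0.01) and, with single libraries left out, for Adgre1 (-0.03 to 1.03), Aif1 (-0.69 to 1.5), Cd14 (-0.14 to 0.39), Cd163 (-0.13 to 1.17), Csf1r (-0.08 to 1.15), Mrc1 (-0.63 to 0.83) and Trem2 (-1.02 to 0.21), and in CFA in WT for Csf1r (-0.99 to 0.24), Cx3cr1 (-1.01 to 0.20) and Mrc1 (-0.94 to 0.53). None of these was called as reported, and the cause was not tested.

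Libraries with the same replicate number gave no sign of pairing (correlations of their deviations from the group means from -0.14 to 0.03). With 2 libraries a group, this check cannot exclude a shared animal or batch. With the number as a block, 6 and 4 genes passed for iKO against WT under vehicle and the interaction, and genes called over all fell from 3406 to 2524, 8 to 0, 3564 to 2547, 345 to 207 and 1895 to 1062 in the 5 comparisons. With the numbers of the WT CFA libraries crossed, an alternative added after seeing the data, 5 of the 10 and 2910 genes in all passed for CFA in WT. With 2 libraries a group, the spread rests mainly on sharing over genes and groups, and Trem2 in iKO vehicle on 23 and 33 reads.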
